A study of Mus musculus with 33 samples.

Results

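Of the 773 mouse genes counted in these lungs, 10 are described here: genes that give T cells their second signal, or that mark CD4 T cells and regulatory T cells. They are the panel's entries for Cd28, Icos, Tnfrsf4, Tnfrsf9, Cd80, Cd86, Cd40, Foxp3, Il2ra and Cd4. They were chosen with earlier results of these data known. All 10 were measured in all 33 right-lung RNA samples. The counts come from nCounter, an assay that counts RNA molecules by hybridized barcodes without amplification. Every mouse carried CCSP-rtTAtg/(teto)7Sftpb/Sftpb-/- on the FVB/N strain, so its own surfactant protein B gene is absent and doxycycline switches on a replacement in airway epithelium through the CCSP promoter. The work concerns redosing of adeno-associated virus (AAV) vectors in these mice, and AAV-hSPB and AAV-hSPBTLR9i were the vectors given into the trachea.

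At day 97 there were 6 groups of 4 lungs, each with 2 females (replicates 1 and 2) and 2 males. The AAV-hSPBTLR9i repeat and AAV-hSPB repeat groups received vector at day 0, lost doxycycline at day 7, received vector again at day 90 and were then 7 days from their last dose. The AAV-hSPBTLR9i single and AAV-hSPB single groups had the day 0 dose alone and the same loss of doxycycline at day 7. The off-doxycycline group had no vector and lost doxycycline at day 94, and the on-doxycycline group had no vector and kept it. In another experiment 9 lungs, 2 female and 1 male per group, were taken 3 h after AAV-hSPBTLR9i, AAV-hSPB or PBS. No label ties each sample to a separate animal, and p-values here therefore reflect the spread among lung samples.

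T cells need the antigen signal and a second, costimulatory signal. Cd28 on the T cell binds Cd80 and Cd86 on antigen-presenting cells, Cd40 on those cells receives the signal of helper T cells, and Icos, Tnfrsf4 (OX40) and Tnfrsf9 (4-1BB) are further receptors that appear or increase on activated T cells. Foxp3 is the transcription factor that defines regulatory T cells, which restrain such responses, and Il2ra (CD25) is the interleukin-2 receptor chain found on them and on activated T cells.

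Total recovered counts ran from 597788 to 1131011 per day 97 lung and from 1156612 to 1710291 per 3 h lung. Levels are given in log2 units of the normalized count, a difference of 1 being a doubling in the lung RNA, and they are never set between genes or between the experiments. In such bulk RNA a lower number of expressing cells and less RNA per cell cannot be told apart. On-doxycycline replicate 1 stands apart through liver transcripts, with a summed level of 47949 for 3 liver genes in that lung against a group median of 848.2. AAV-hSPB repeat replicate 2 correlated with the lungs of its own group at 0.944 to 0.953 over all genes, the upper value being the lowest of the day 97 lungs. Samples numbered 1 to 12 are the on-doxycycline, off-doxycycline and AAV-hSPB single lungs and those numbered 13 to 24 the rest. No label says whether these sets were measured in separate runs. Where a comparison crosses from 1 set to the other, such runs and the groups cannot be told apart.

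Across the 24 day 97 lungs the 10 genes did not vary as one. Cd28, Icos and Cd4 varied together, with Pearson r of 0.89 between Cd28 and Icos and 0.89 between Cd28 and Cd4. Icos had 0.74 with Cd4 and 0.80 with Tnfrsf4. Tnfrsf9, Il2ra, Cd80 and Cd86 also varied together, with 0.83 between Tnfrsf9 and Il2ra and 0.74 between Cd80 and Il2ra. Cd86 had 0.74 with Cd80, 0.74 with Il2ra and 0.72 with Tnfrsf9, but also 0.78 with Tnfrsf4, its highest, and 0.72 with Icos. Foxp3 had 0.70 with Cd86, 0.69 with Tnfrsf9 and 0.68 with Il2ra, beside 0.52 with Cd80 and 0.68 with Icos. Tnfrsf9 and Cd4 had 0.16. Taking each lung's deviation from its group mean left 0.74 for Cd28 with Icos, 0.85 for Tnfrsf9 with Il2ra and 0.75 for Cd80 with Il2ra. It left 0.72 for Tnfrsf9 with Cd80 and 0.40 for Icos with Cd4. Cd40, in the same deviations, ran against Foxp3 with r of -0.64. These coefficients are descriptions over 24 lungs that share groups and scaling genes. Without the off-doxycycline lungs the value of the deviations was 0.74 for Tnfrsf9 with Il2ra, 0.61 for Cd80 with Il2ra and 0.445 for Tnfrsf9 with Cd80. Cd86 then had 0.66 with Tnfrsf4 and 0.60 with Cd4, above its 0.575 with Cd80, 0.56 with Tnfrsf9 and 0.55 with Il2ra.

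**Figure D1:**
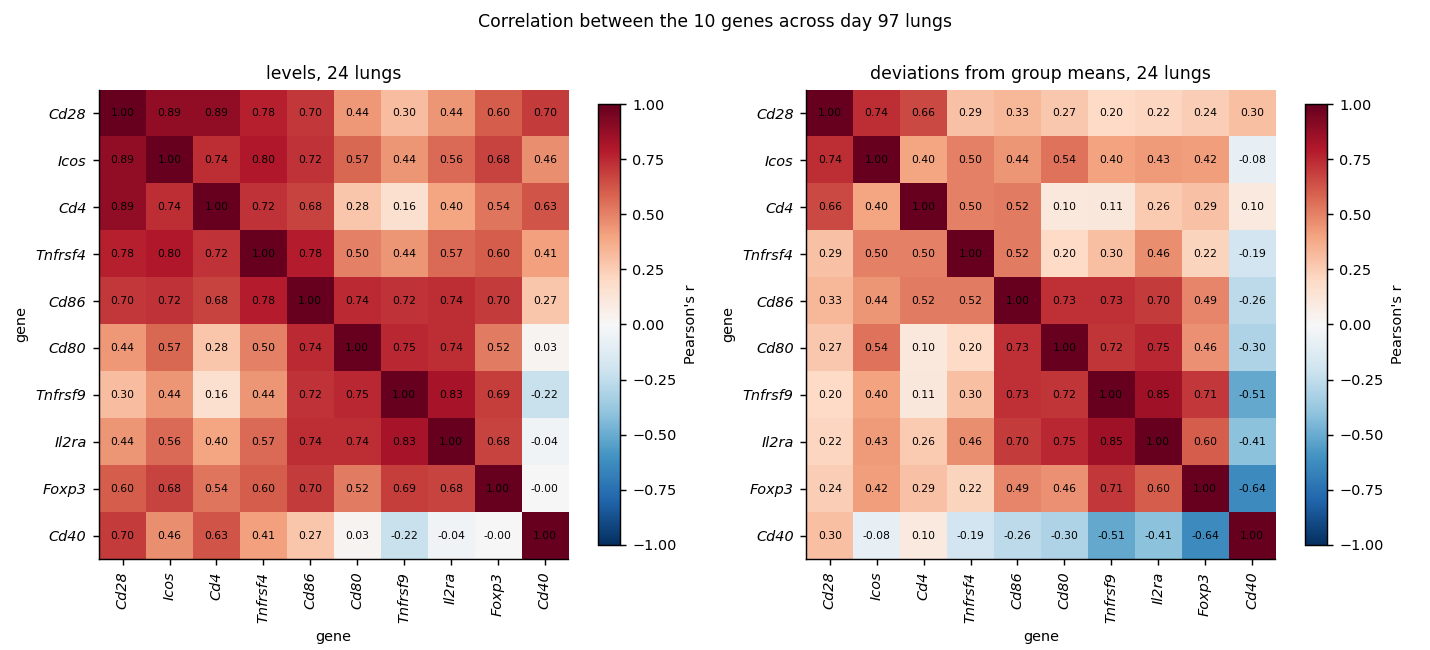
Pearson correlations between the 10 genes over the 24 day 97 lungs, from the log2 levels themselves and from each lung's deviation from its group mean. Cd28 stands with Icos (0.89) and Cd4 (0.89), and Tnfrsf9 with Il2ra (0.83).

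RefSeq promoter windows of 300 bases, 250 before and 50 after a start site, matched 5 of the 10 genes with 7 windows, on build GRCm38.p6. These motifs were searched for on both strands: the NF-kB site, the STAT motif TTCNNNGAA and the AP-1 motif TGANTCA, the DNA sites of factors that act in lymphocyte activation. Windows of Il2ra, Tnfrsf9 and Cd80 are shown here with their matches in capitals. Among windows not shown, that of Foxp3 at chrX:7580233-7580532 holds 1 STAT match, with the same bases as the STAT match of Tnfrsf9. The other Foxp3 window and the Tnfrsf4 window hold 0 matches. Matches were thus not confined to the genes shown. Cd86, which varied with those genes and with Tnfrsf4, had no window. The first is that of Il2ra at chr2:11642542-11642841, plus strand, then that of Tnfrsf9 at chr4:150927749-150928048, plus strand, and that of Cd80 at chr16:38458683-38458982, plus strand.
Il2ra: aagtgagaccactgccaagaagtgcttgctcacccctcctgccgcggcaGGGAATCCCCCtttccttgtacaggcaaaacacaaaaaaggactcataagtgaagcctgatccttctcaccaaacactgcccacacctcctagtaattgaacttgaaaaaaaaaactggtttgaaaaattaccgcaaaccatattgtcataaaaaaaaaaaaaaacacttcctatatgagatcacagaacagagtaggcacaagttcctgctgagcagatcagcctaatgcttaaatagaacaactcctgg
Tnfrsf9: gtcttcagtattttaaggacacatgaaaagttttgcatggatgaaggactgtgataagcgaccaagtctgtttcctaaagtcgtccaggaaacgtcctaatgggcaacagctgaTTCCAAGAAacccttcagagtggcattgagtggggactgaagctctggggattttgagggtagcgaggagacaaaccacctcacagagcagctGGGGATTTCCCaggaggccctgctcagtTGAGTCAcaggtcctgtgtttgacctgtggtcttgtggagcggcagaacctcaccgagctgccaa
Cd80: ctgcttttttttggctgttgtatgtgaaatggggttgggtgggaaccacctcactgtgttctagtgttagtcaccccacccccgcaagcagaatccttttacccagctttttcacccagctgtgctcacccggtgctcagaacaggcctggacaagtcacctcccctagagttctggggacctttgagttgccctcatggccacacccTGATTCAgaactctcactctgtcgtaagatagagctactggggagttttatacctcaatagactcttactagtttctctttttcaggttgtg
The Il2ra window holds 2 NF-kB matches that overlap each other. The Tnfrsf9 window holds 2 overlapping NF-kB matches, 1 STAT match and 1 AP-1 match, while the other Tnfrsf9 window holds 0. The Cd80 window holds 1 AP-1 match, no match of one motif overlaps that of another, and of all 32851 windows 8.46% hold an NF-kB match, 8.30% a STAT match and 7.81% an AP-1 match. A match is a description of the letters in the window, not of binding.

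Lungs with repeated dosing were compared with on-doxycycline lungs, from which both vector and the absence of doxycycline from day 7 set them apart. Of the 10 genes, 5 rose with AAV-hSPBTLR9i repeat, where 11% of all genes rose, and 7 rose with AAV-hSPB repeat, where 23.3% of all genes rose (limma, adjusted p under 0.05 over 773 genes). None fell. The median difference of the 10 genes was 0.75 for AAV-hSPBTLR9i repeat and 0.98 for AAV-hSPB repeat, beside 0.11 and 0.15 over all genes. Both comparisons use the same 4 on-doxycycline lungs. Because the 10 genes were chosen with earlier results known, these shares and medians describe them and are not a test of the set.

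Cd28 rose in both. Its levels were 7.58, 8.05, 7.49 and 7.65 in AAV-hSPBTLR9i repeat lungs and 8.04, 7.64, 7.61 and 8.20 in AAV-hSPB repeat lungs, against 6.73, 6.95, 6.74 and 6.19 on doxycycline. Every repeat lung lay above every on-doxycycline lung. The rise was 1.04 ± 0.18 log2 units (SE, n = 4 per group, 2.06-fold, limma adjusted p = 0.000648) with AAV-hSPBTLR9i repeat and 1.22 ± 0.18 (2.33-fold, limma adjusted p = 7.66e-05) with AAV-hSPB repeat, and both calls were kept under all 19 alternative settings run.

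Icos, the receptor through which follicular helper T cells are sustained, rose with AAV-hSPB repeat. Levels were 6.47, 6.92, 6.40 and 6.71 in AAV-hSPBTLR9i repeat lungs and 6.91, 6.88, 6.57 and 7.33 in AAV-hSPB repeat lungs, against 6.20, 6.21, 6.13 and 5.31 on doxycycline. All 8 repeat lungs exceeded all 4 on-doxycycline lungs, of which replicate 4 was the lowest. The difference was 0.66 ± 0.23 with AAV-hSPBTLR9i repeat (limma adjusted p = 0.0685) and 0.96 ± 0.23 with AAV-hSPB repeat (limma adjusted p = 0.00475).

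Tnfrsf4, a receptor that prolongs the survival of activated T cells, was near background on doxycycline, at 18 to 26 counts. Background is the mean plus 2 SD of the 8 dimmest control probes of a lung, and on-doxycycline replicates 1 and 4 did not exceed it. Its levels were 5.26, 5.41, 5.32 and 5.26 in AAV-hSPBTLR9i repeat lungs and 5.29, 5.48, 5.65 and 6.30 in AAV-hSPB repeat lungs, against 4.47, 4.55, 4.32 and 4.10 on doxycycline. The groups did not overlap. The rise was 0.95 ± 0.23 with AAV-hSPBTLR9i repeat (limma adjusted p = 0.00775) and 1.32 ± 0.23 with AAV-hSPB repeat (limma adjusted p = 0.000317). With such lungs raised to their background it was 0.92 and 1.29.

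Tnfrsf9 spread widely within groups and did not pass. It stood at 7.58, 6.80, 6.36 and 6.61 in AAV-hSPBTLR9i repeat lungs and at 6.92, 7.73, 6.65 and 7.61 in AAV-hSPB repeat lungs, against 5.39, 5.58, 6.72 and 4.94 on doxycycline. On-doxycycline replicate 3 reached into the range of both repeat groups. The differences were 1.18 ± 0.65 for AAV-hSPBTLR9i repeat (limma adjusted p = 0.275) and 1.57 ± 0.65 for AAV-hSPB repeat (limma adjusted p = 0.0809).

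**Figure D2:**
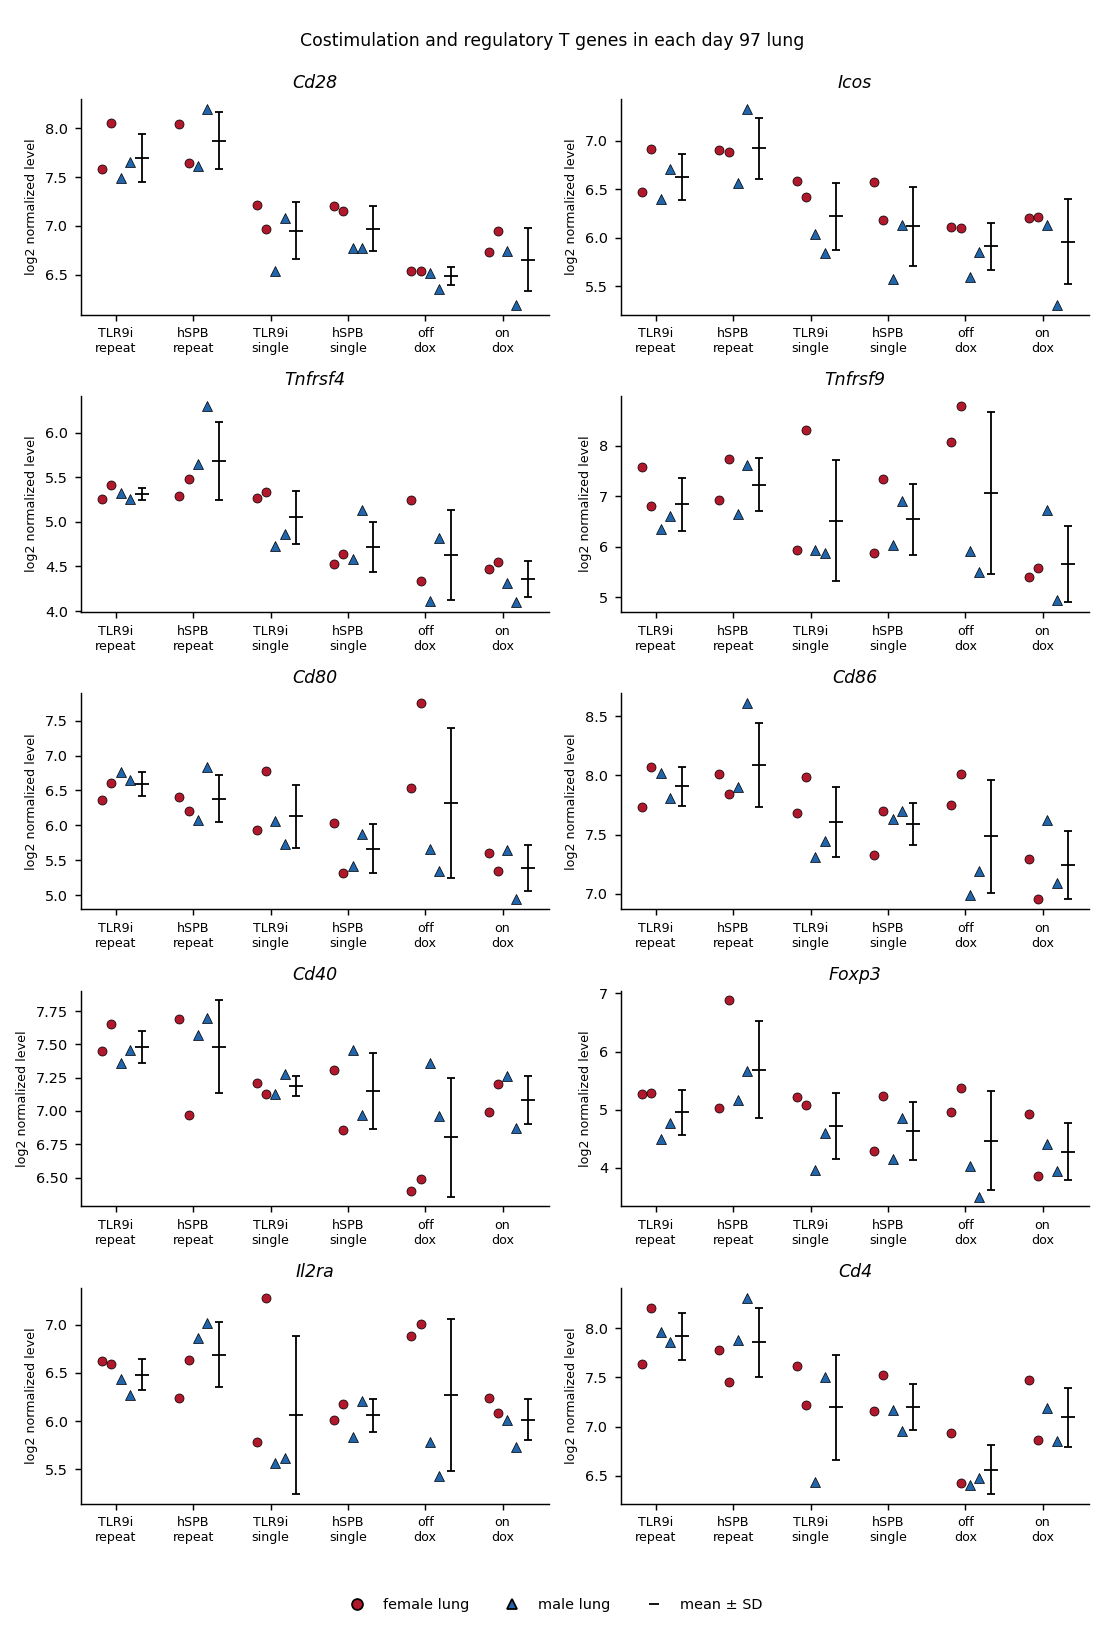
Log2 levels of the 10 genes in each of the 24 day 97 lungs (circles female, triangles male), in 6 groups, with the mean ± SD of each group beside them; TLR9i stands for AAV-hSPBTLR9i and hSPB for AAV-hSPB. For Cd28 every repeat lung, 7.49 and up, lies above every other lung, 7.21 and down.

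Of the genes of antigen-presenting cells, Cd80 and Cd86 rose in both comparisons and Cd40 in neither. Cd80 levels were 6.36, 6.60, 6.77 and 6.65 in AAV-hSPBTLR9i repeat lungs and 6.41, 6.20, 6.08 and 6.84 in AAV-hSPB repeat lungs, against 5.61, 5.35, 5.65 and 4.94 on doxycycline. The groups did not overlap. The rise was 1.21 ± 0.36 with AAV-hSPBTLR9i repeat (limma adjusted p = 0.0337, 0.0067 to 0.121 over the alternatives) and 0.99 ± 0.36 with AAV-hSPB repeat (limma adjusted p = 0.0489, 0.029 to 0.140 over the alternatives). The AAV-hSPBTLR9i call was lost in 8 of 18 alternatives, among them the omission of on-doxycycline replicate 2 (1.19) or 4 (1.06) or of AAV-hSPBTLR9i repeat replicate 2 (1.21), 3 (1.15) or 4 (1.19). The AAV-hSPB call was lost in 11 of 18, among them the omission of on-doxycycline replicate 1 (1.07), 2 (0.98) or 4 (0.85) or of AAV-hSPB repeat replicate 1 (0.99), 2 (1.05) or 4 (0.84). For both calls the losses include scaling to the median gene, scaling to all 12 reference genes and the series matrix values. Those of AAV-hSPB also include voom on recovered counts.

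Cd86 stood at 7.73, 8.07, 8.02 and 7.81 in AAV-hSPBTLR9i repeat lungs and at 8.01, 7.84, 7.90 and 8.61 in AAV-hSPB repeat lungs, against 7.29, 6.96, 7.62 and 7.09 on doxycycline. Again no repeat lung was as low as any on-doxycycline lung. The rise was 0.85 ± 0.22 with AAV-hSPB repeat (limma adjusted p = 0.00627), kept in all 19 alternatives. With AAV-hSPBTLR9i repeat it was 0.67 ± 0.22 with a limma adjusted p of 0.0498, just inside the threshold, and the call was lost in 12 of 19 alternatives (0.0236 to 0.147). These include the omission of any AAV-hSPBTLR9i repeat lung (0.61 to 0.73) and of on-doxycycline replicate 1 (0.68), 2 (0.57) or 4 (0.62). They also include scaling to the median gene, scaling to all 12 reference genes and the series matrix values. Cd40 differed by 0.40 ± 0.19 in each comparison, with limma adjusted p = 0.194 for AAV-hSPBTLR9i repeat and 0.128 for AAV-hSPB repeat.

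Among the CD4 and regulatory T genes, Cd4 rose in both comparisons. Its levels were 7.64, 8.21, 7.96 and 7.86 in AAV-hSPBTLR9i repeat lungs and 7.78, 7.45, 7.88 and 8.31 in AAV-hSPB repeat lungs, against 7.47, 6.86, 7.19 and 6.85 on doxycycline. On-doxycycline replicate 1 lay just above AAV-hSPB repeat replicate 2, and AAV-hSPBTLR9i repeat did not overlap the controls. The rise was 0.82 ± 0.23 with AAV-hSPBTLR9i repeat (limma adjusted p = 0.0221) and 0.76 ± 0.23 with AAV-hSPB repeat (limma adjusted p = 0.0198). The AAV-hSPBTLR9i call was lost in 4 of 19 alternatives (limma adjusted p 0.0113 to 0.0871), among them the omission of on-doxycycline replicate 2 (0.75) or 4 (0.74) or of AAV-hSPBTLR9i repeat replicate 2 (0.73). The AAV-hSPB call was lost in 7 of 19 (0.0070 to 0.0782), among them the omission of on-doxycycline replicate 2 (0.69) or 4 (0.68) or of AAV-hSPB repeat replicate 4 (0.61). Its losses include scaling to the median gene, scaling to all 12 reference genes and the series matrix values. Of these, only the median gene scale ended the AAV-hSPBTLR9i call.

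Foxp3 rose with AAV-hSPB repeat, on 10 to 85 counts per lung over the day 97 table. Its levels were 5.26, 5.29, 4.50 and 4.77 in AAV-hSPBTLR9i repeat lungs and 5.03, 6.88, 5.17 and 5.67 in AAV-hSPB repeat lungs, against 4.92, 3.85, 4.40 and 3.94 on doxycycline. On-doxycycline replicates 2 and 4 were not above background. AAV-hSPB repeat replicate 2 was far the highest lung. The rise with AAV-hSPB repeat was 1.41 ± 0.43 (limma adjusted p = 0.0202) and 1.25 with lungs raised to background. Left out alone, AAV-hSPB repeat replicate 2 gave 1.01 (limma adjusted p = 0.0759), on-doxycycline replicate 2 gave 1.27 (0.0636) and on-doxycycline replicate 4 gave 1.30 (0.0629), and each ended the call, whose adjusted p ran from 0.0057 to 0.0759 over the alternatives. With AAV-hSPBTLR9i repeat the difference was 0.68 ± 0.43 (limma adjusted p = 0.355).

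Il2ra did not pass in either, at 6.62, 6.59, 6.44 and 6.27 in AAV-hSPBTLR9i repeat lungs and 6.24, 6.63, 6.86 and 7.02 in AAV-hSPB repeat lungs, against 6.24, 6.08, 6.01 and 5.73 on doxycycline. Its differences were 0.46 ± 0.34 (limma adjusted p = 0.427) and 0.67 ± 0.34 (limma adjusted p = 0.151). Of the 10 genes, 8 had every AAV-hSPBTLR9i repeat lung above every on-doxycycline lung (18.1% of all genes did) and 6 had every AAV-hSPB repeat lung above (18.2% of all genes did).

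**Figure D3:**
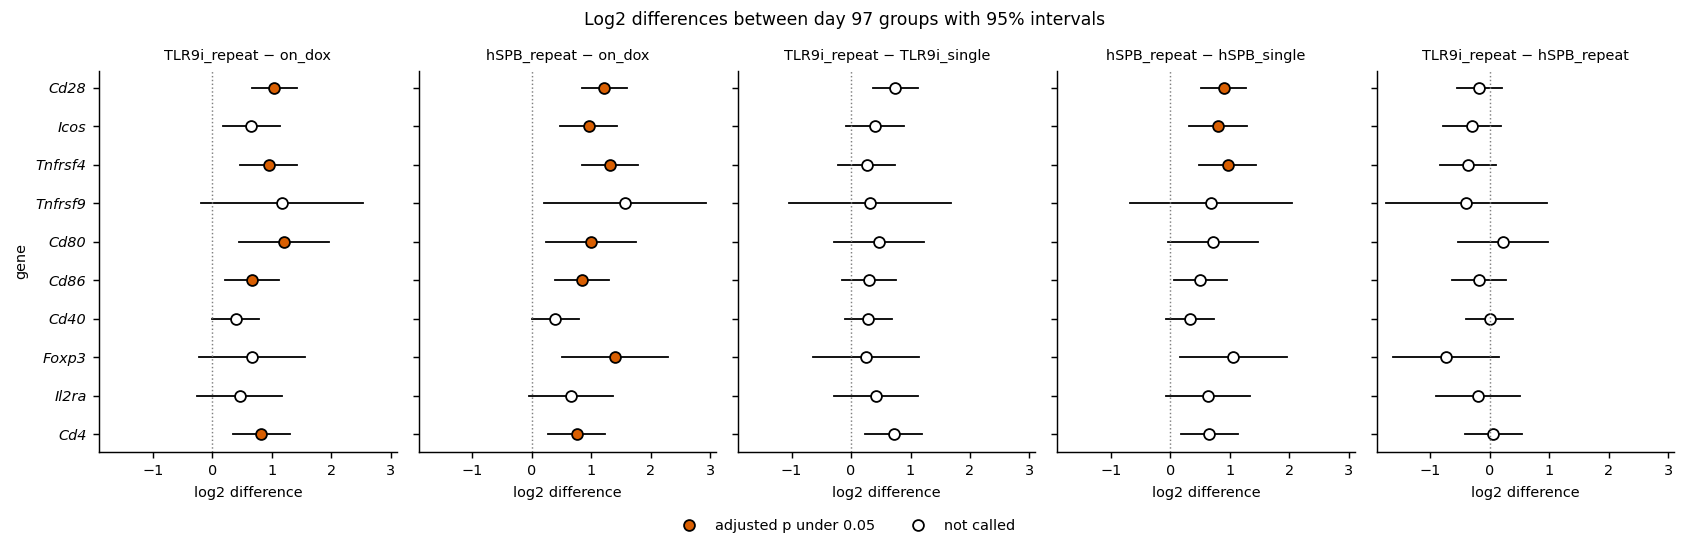
Log2 differences of the 10 genes with 95% confidence intervals from limma in the main day 97 comparisons, filled where the adjusted p was under 0.05. Cd28 lies furthest from 0 relative to its error, at 1.04 and 1.22 in the repeat groups against on doxycycline.

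The count of genes called in these comparisons depended on scaling and on single lungs. With AAV-hSPBTLR9i repeat it was 2 without on-doxycycline replicate 2, without on-doxycycline replicate 4 or without AAV-hSPBTLR9i repeat replicate 2, and 3 without AAV-hSPBTLR9i repeat replicate 3 or replicate 4. With AAV-hSPB repeat it was 4 without on-doxycycline replicate 2 or replicate 4. Scaled to the median gene, all genes together gave 53 higher and 37 lower with AAV-hSPBTLR9i repeat in place of 85 and 4, and 98 higher and 119 lower with AAV-hSPB repeat in place of 180 and 23, and 2 and 5 of the 10 genes were called. All 10 had differences above 0 under every scaling run. Without on-doxycycline replicate 1 and AAV-hSPB repeat replicate 2 together, 4 of the 10 passed with AAV-hSPBTLR9i repeat and 6 with AAV-hSPB repeat.

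Most other genes of the same pathway did not pass. Of 23 measured genes on a costimulation and regulatory T list without the 10, 4 rose with AAV-hSPBTLR9i repeat, beside 11% of all genes, and 9 with AAV-hSPB repeat, beside 23.3% of all genes, and 0 fell. Their median difference was 0.28 and 0.38, beside 0.11 and 0.15 over all genes, and on the median gene scale 2 and 3 rose. Ctla4, the inhibitory receptor that competes with Cd28 for its ligands, rose by 1.47 and 1.66, and Tnfrsf18 (GITR), a receptor abundant on regulatory T cells, by 0.65 and 1.00. In 2 on-doxycycline lungs Ctla4 was not above background. Icosl, the ligand of Icos, rose by 0.60 and 0.55, and Cd70 was counted among the rises but was not above background in any day 97 lung. The ligand genes Tnfsf4 (0.23 and 0.38) and Tnfsf9 (-0.23 and 0.21) did not pass, and Tnfsf4 was not above background in 23 of 24 lungs.

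Markers of whole cell types were counted beside the same 11% of all genes for AAV-hSPBTLR9i repeat and 23.3% for AAV-hSPB repeat, and their part in the results above was not tested. Of 7 B and plasma cell markers 7 rose with AAV-hSPBTLR9i repeat and 6 with AAV-hSPB repeat. Of 10 T cell markers 1 and 4 rose, with Cd6 up by 0.91 and 0.98, and of 4 NK and 3 neutrophil markers 0 rose in either. Of 6 macrophage and monocyte markers 1, Csf1r, rose in each. Of 3 dendritic cell markers 0 rose with AAV-hSPBTLR9i repeat and 1, Itgax, with AAV-hSPB repeat (0.60, limma adjusted p = 0.0385). Xcr1 differed by 1.10 and 1.00 and Ccr7 by 0.08 and 0.00, without passing. The summed level of the T cell markers was 2173 to 3073 in AAV-hSPBTLR9i repeat lungs and 1867 to 3402 in AAV-hSPB repeat lungs, against 1459 to 2180 on doxycycline. That of the 6 macrophage and monocyte markers was 2542 to 3774 and 2571 to 3499, against 2117 to 3217 on doxycycline.

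Repeat lungs were set against single-dose lungs of the same vector, which were 97 days from their dose, so the number of doses and the time since the last one cannot be told apart. The AAV-hSPB repeat and single lungs also fall in different sets of sample numbers, 13 to 24 and 1 to 12. Both AAV-hSPBTLR9i groups fall in 13 to 24. With AAV-hSPB, 3 of the 10 genes rose, where 6.73% of all genes rose, and the median difference was 0.70 beside 0.06 over all genes. Cd28 stood at 8.04, 7.64, 7.61 and 8.20 in AAV-hSPB repeat lungs, against 7.20, 7.15, 6.77 and 6.77 in AAV-hSPB single lungs, a rise of 0.90 ± 0.18 (limma adjusted p = 0.0057) without overlap. Tnfrsf4 stood at 5.29, 5.48, 5.65 and 6.30 in AAV-hSPB repeat lungs, against 4.53, 4.64, 4.58 and 5.13 in AAV-hSPB single lungs, a rise of 0.96 ± 0.23 (limma adjusted p = 0.0137), again without overlap. Icos stood at 6.91, 6.88, 6.57 and 7.33 in AAV-hSPB repeat lungs, against 6.58, 6.18, 5.58 and 6.13 in AAV-hSPB single lungs, a rise of 0.80 ± 0.23 (limma adjusted p = 0.0396) with 1 pair of lungs out of order.

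The other 7 genes lay between 0.33 and 1.06 above AAV-hSPB single and did not pass. Foxp3 had 1.06 ± 0.43 (limma adjusted p = 0.137) and Cd4 0.66 ± 0.23 (limma adjusted p = 0.088). In 5 of the 10 genes every AAV-hSPB repeat lung lay above every AAV-hSPB single lung, as did 10.3% of all genes. Without AAV-hSPB repeat replicate 4 only Cd28 passed, and Tnfrsf4 stood at 0.75 (limma adjusted p = 0.0558, up to 0.108 over the alternatives). The Icos call was lost in 10 of 18 alternatives, 6 of them the omission of 1 lung (AAV-hSPB single replicate 2, 3 or 4, or AAV-hSPB repeat replicate 1, 2 or 4), with values of 0.62 to 0.82. Scaling to all 12 reference genes and the series matrix values ended it too. A fit of the compared groups alone called 0 of the 10.

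With AAV-hSPBTLR9i 0 of the 10 genes passed between repeat and single dosing, where 0.388% of all genes did (limma, 2 of the 10 with unadjusted p under 0.05, 1 called by voom on recovered counts). Cd28 stood at 7.58, 8.05, 7.49 and 7.65 in AAV-hSPBTLR9i repeat lungs, against 7.21, 6.97, 6.54 and 7.08 in AAV-hSPBTLR9i single lungs, without overlap and with a difference of 0.74 ± 0.18 (limma adjusted p = 0.109). Cd4 stood at 7.64, 8.21, 7.96 and 7.86 in AAV-hSPBTLR9i repeat lungs, against 7.62, 7.22, 6.44 and 7.50 in AAV-hSPBTLR9i single lungs, with a difference of 0.72 ± 0.23 (limma adjusted p = 0.309). Both are above 0, as were all 10 genes, with a median of 0.36 beside 0.02 over all genes.

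Whether the vectors differed was tested directly. AAV-hSPBTLR9i repeat against AAV-hSPB repeat gave 0 of 10 genes, as of all genes 0% passed, and 0 had unadjusted p under 0.05 in limma or were called by voom. Cd28 differed by -0.18 (95% interval -0.56 to 0.20) and Cd40 by -0.00 (-0.40 to 0.40). Foxp3 differed by -0.73, with an interval of -1.62 to 0.16 that includes 0. The single-dose groups likewise gave 0 of 10 (0% of all genes, 0 at unadjusted p under 0.05 and 0 by voom), with Cd28 at -0.02 (-0.40 to 0.36) and Cd80 at 0.46 (-0.29 to 1.22). The change of the repeat effect between vectors passed for 0 of 10 (0% of all genes, 0 by voom), and 1, Tnfrsf4, had unadjusted p under 0.05, at -0.69 with limma adjusted p = 0.995.

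Without a repeat dose no gene of the 10 passed against on doxycycline. AAV-hSPBTLR9i single gave 0 of 10 (0.259% of all genes, 1 at unadjusted p under 0.05, 0 by voom) and AAV-hSPB single 0 of 10 (0% of all genes, 0 at unadjusted p under 0.05, 0 by voom). The gene at unadjusted p was Tnfrsf4, at 5.27, 5.34, 4.73 and 4.86 in AAV-hSPBTLR9i single lungs, against 4.47, 4.55, 4.32 and 4.10 on doxycycline, a difference of 0.69 (limma adjusted p = 0.231) without overlap.

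The off-doxycycline lungs, 3 days after loss of doxycycline, gave 0 of 10 against on doxycycline (0% of all genes in limma, 3 at unadjusted p under 0.05, 0 by voom). Cd80 had a difference of 0.93 ± 0.36 (limma adjusted p = 0.333), Tnfrsf9 of 1.41 ± 0.65 (0.384) and Cd4 of -0.53 ± 0.23 (0.371). Cd4 stood at 6.93, 6.43, 6.41 and 6.48 off doxycycline, against 7.47, 6.86, 7.19 and 6.85 on doxycycline, and off-doxycycline replicate 1 alone reached above the lowest on-doxycycline lungs.

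Set against the off-doxycycline lungs, which also lacked doxycycline at harvest but had no vector, the 8 repeat lungs together had 6 of 10 genes higher and 0 lower, where 23.4% of all genes were higher. Off-doxycycline lungs lost doxycycline at day 94 and all vector-treated lungs at day 7. Vector and the time without doxycycline therefore cannot be told apart here. Cd4 rose by 1.32 ± 0.20 (2.50-fold, limma adjusted p = 0.000152) and Cd28 by 1.29 ± 0.16 (2.45-fold, limma adjusted p = 2.7e-05). Cd28 stood at 6.54, 6.54, 6.52 and 6.35 off doxycycline, so that every repeat lung, 7.49 or more, was above it. Icos rose by 0.86 ± 0.20 (limma adjusted p = 0.00324) over off-doxycycline levels of 6.11, 6.10, 5.60 and 5.85. Tnfrsf4 rose by 0.87 ± 0.20 (limma adjusted p = 0.00264) over levels of 5.24, 4.34, 4.11 and 4.82, 1 of them not above background.

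Cd40, which did not pass against on doxycycline, rose by 0.68 ± 0.17 (limma adjusted p = 0.00439). Its levels were 7.45, 7.65, 7.36 and 7.46 in AAV-hSPBTLR9i repeat lungs and 7.69, 6.97, 7.57 and 7.70 in AAV-hSPB repeat lungs, against 6.40, 6.49, 7.36 and 6.96 off doxycycline. Off-doxycycline females held the lowest values, and without both females the difference was 0.32 (limma adjusted p = 0.239, 0.00084 to 0.239 over the alternatives). Cd86 rose by 0.51 ± 0.19 (limma adjusted p = 0.0439, 0.0059 to 0.199), a call lost in 12 of 24 alternatives, among them the omission of off-doxycycline replicate 3 (0.35) or 4 (0.41), AAV-hSPB repeat replicate 1 (0.53) or 4 (0.43), or AAV-hSPBTLR9i repeat replicate 2 (0.49), 3 (0.49) or 4 (0.53). Scaling to the median gene, scaling to all 12 reference genes and the series matrix values ended the Cd86 call too. Tnfrsf9 (-0.04), Cd80 (0.17), Il2ra (0.31) and Foxp3 (0.86, limma adjusted p = 0.0895) did not pass. Without both off-doxycycline females, an alternative added after the values were seen, Cd80 stood at 0.98 (limma adjusted p = 0.0123), Il2ra at 0.98 (0.0373), Foxp3 at 1.56 (0.0164), Cd86 at 0.91 (0.0059) and Tnfrsf9, which did not pass, at 1.32 (0.120).

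In the same comparison, where 23.4% of all genes were higher, 9 of 10 T cell markers rose, among them Cd6 by 1.25 and Cd3g by 0.90. Summed T cell levels were 1461 to 1849 off doxycycline. Of 7 B and plasma cell markers 7 rose, with a median of 1.19 beside 0.82 for the T cell markers. Of 6 macrophage and monocyte markers 1 rose, and of 4 NK and 3 neutrophil markers 0. Of 3 dendritic cell markers 1, Xcr1, rose, by 1.66 (limma adjusted p = 0.00116), while Itgax (0.08) and Ccr7 (-0.01) did not pass. Of the 23 pathway genes 9 rose, with Cd40lg, the ligand of Cd40 on helper T cells, at 0.95 (limma adjusted p = 0.00514) and Ctla4 at 1.05. In 1 off-doxycycline lung Ctla4 was not above background. Scaled to the median gene, the split of all genes was 111 higher and 105 lower in place of 181 and 40. On that scale 5 of the 10 genes were called. There 8 of 10 T cell markers and 6 of 7 B and plasma cell markers were higher. Of the 23 pathway genes 4 were higher and 2 lower. The single-dose lungs together gave 0 of 10 against off doxycycline (0.388% of all genes, 3 at unadjusted p under 0.05 in limma, 0 by voom), with Cd28 at 0.47 (limma adjusted p = 0.0954) and Cd4 at 0.63 (0.0905), and 1 gene passed without off-doxycycline replicate 3.

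Within the off-doxycycline group females and males separated for part of these genes, a comparison made after the values were seen, of 2 lungs with 2. Of the 10 genes 4 were higher in females, where 8.8% of all genes were higher. Tnfrsf9 stood at 8.07 and 8.79 in females, against 5.92 and 5.50 in males, a difference of 2.72 ± 0.73 (6.61-fold, limma adjusted p = 0.0229). Cd80 stood at 6.53 and 7.75 in females, against 5.66 and 5.35 in males, a difference of 1.63 ± 0.40 (limma adjusted p = 0.0152). For both genes the females exceeded the males.

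Il2ra stood at 6.88 and 7.01 in females, against 5.78 and 5.43 in males, a difference of 1.34 ± 0.33 (limma adjusted p = 0.0148). Cd86 stood at 7.75 and 8.01 in females, against 6.99 and 7.19 in males, a difference of 0.79 ± 0.24 (limma adjusted p = 0.0425). Cd40 went the other way, at 6.40 and 6.49 in females, against 7.36 and 6.96 in males, without passing (-0.71 ± 0.24, limma adjusted p = 0.064). Cd28 (0.11) and Cd4 (0.24) had small differences that did not pass.

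Without off-doxycycline replicate 2 or 4 no gene of the 10 passed, and 2 passed without replicate 3; in these fits the lone lung is assumed to vary like the others. Tnfrsf9 stood at 2.36 (limma adjusted p = 0.166), 2.52 (0.148) and 2.93 (0.0648) without replicates 2, 4 and 3. Without replicate 2, Cd80 stood at 1.02 (0.193) and Il2ra at 1.28 (0.111), and without replicate 4 at 1.47 (0.133) and 1.17 (0.140). Over the alternatives the adjusted p of Tnfrsf9 ran from 0.0166 to 0.166, that of Cd80 from 0.0072 to 0.193, that of Il2ra from 0.0139 to 0.140 and that of Cd86 from 0.033 to 0.245. Scaled to the median gene, all genes had 53 higher and 81 lower in females in place of 68 and 41, with 5 of the 10 called.

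Of the 23 other pathway genes 0 were higher in females and 1 lower, Cd27, a costimulatory receptor of the same family as Tnfrsf4, by -1.11 (limma adjusted p = 0.0233). Summed macrophage and monocyte markers and summed neutrophil markers separated the sexes in the same direction as the 4 genes, and their part was not tested. Single myeloid markers did not all go that way. The neutrophil marker Elane, not above background off doxycycline, was lower in females (-0.55). Of the dendritic cell markers, Xcr1 was lower in females (-1.20, limma adjusted p = 0.0756), and Itgax (0.61) and Ccr7 (0.18) were higher, without passing. The summed level of the 6 macrophage and monocyte markers was 4473 and 5498 in the off-doxycycline females, against 2218 and 2540 in the males. Of these 2 passed, beside 8.8% of all genes, namely Cd14, the lipopolysaccharide co-receptor of monocytes, by 2.36 and Itgam by 1.52. That of the 3 neutrophil markers, of which 0 passed, was 573.4 and 1519 in females, against 274.8 and 470.0 in males. T and B cell markers had lower sums in females, with 0 passing. The summed T cell level was 1461 and 1494 in females, against 1668 and 1849 in males, and the summed B and plasma cell level was 732.3 and 994.1 in females, against 1106 and 1440 in males.

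This group was picked after its values were seen, and the adjusted p-values do not account for that pick. Its female to male difference against the mean of the same difference in the other 5 groups passed for 1 of the 10 genes. That gene was Cd80, by 1.57 ± 0.44 (limma adjusted p = 0.0483), where 3.23% of all genes were higher. That call was lost in 20 of 32 alternatives (limma adjusted p 0.0197 to 0.310), 18 of them the omission of 1 lung, which was any lung but on-doxycycline replicate 4, off-doxycycline replicate 1, AAV-hSPBTLR9i single replicate 2 and AAV-hSPB repeat replicates 1, 2 and 3, with values of 0.96 to 1.73. In each of the other 5 groups 0 of the 10 passed, as did 0 of all genes. Over all groups 0 of 10 passed between females and males (2.72% of all genes, limma, 5 at unadjusted p under 0.05, 0 by voom), with Foxp3 at 0.66 (limma adjusted p = 0.0789).

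**Figure D4:**
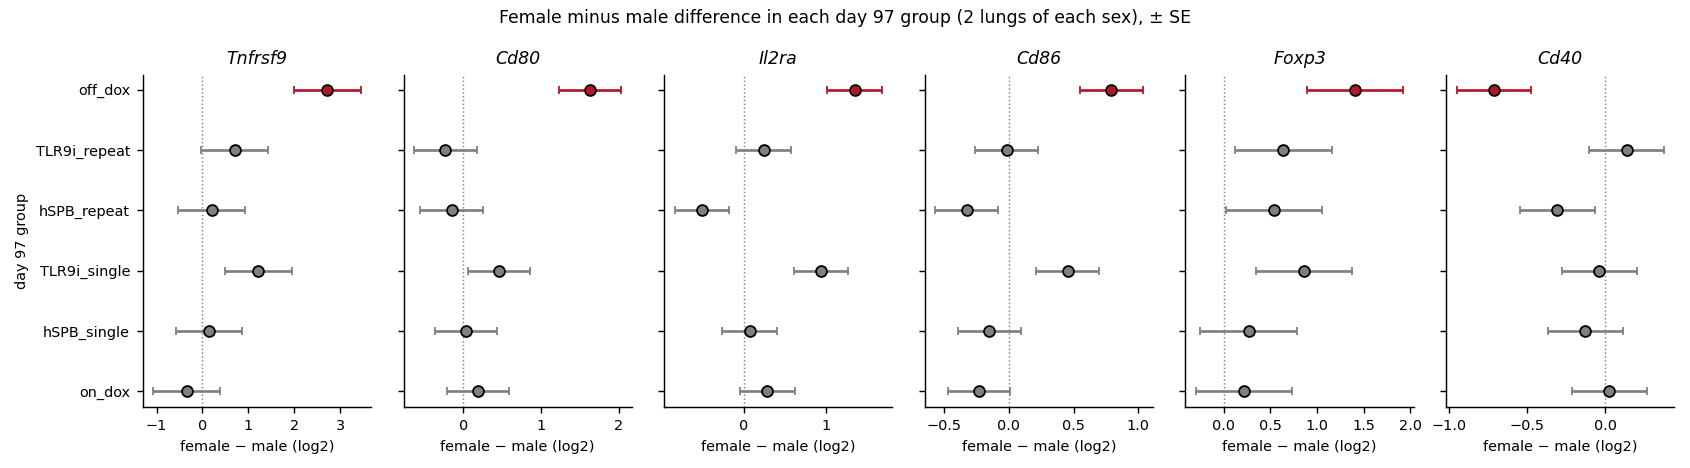
Female minus male log2 differences ± SE from limma in each day 97 group, with 2 lungs of each sex, for 6 of the genes and with the off-doxycycline group in red at the top. Off doxycycline the difference was 2.72 for Tnfrsf9 and 1.63 for Cd80, and -0.71 for Cd40.

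At 3 h after dosing none of the 10 genes passed in any comparison. The count was 0 for AAV-hSPBTLR9i against PBS (0% of all genes, limma, 1 at unadjusted p under 0.05, 0 by voom), 0 for AAV-hSPB against PBS (0% of all genes, 0 at unadjusted p under 0.05, 0 by voom) and 0 for AAV-hSPBTLR9i against AAV-hSPB (0% of all genes, 0 at unadjusted p under 0.05, 0 by voom). Cd80 stood at 6.68, 7.38 and 6.93 after AAV-hSPBTLR9i and 6.69, 6.96 and 6.43 after AAV-hSPB, against 6.89, 5.81 and 6.20 after PBS. The AAV-hSPBTLR9i lungs overlapped PBS through 1 PBS lung, with a difference of 0.70 ± 0.29 (limma adjusted p = 1.0).

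Cd28 stood at 7.87, 8.82 and 8.40 after AAV-hSPBTLR9i and 8.31, 8.21 and 7.55 after AAV-hSPB, against 8.79, 7.87 and 8.73 after PBS, with differences of -0.11 (95% interval -0.88 to 0.67) and -0.45 (-1.22 to 0.33). Foxp3 stood at 5.60, 5.31 and 5.08 after AAV-hSPBTLR9i and 5.20, 5.09 and 4.13 after AAV-hSPB, against 5.76, 4.73 and 5.18 after PBS. Cd40 had the narrowest interval, -0.18 to 0.30 for AAV-hSPBTLR9i and -0.26 to 0.22 for AAV-hSPB.

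**Figure D5:**
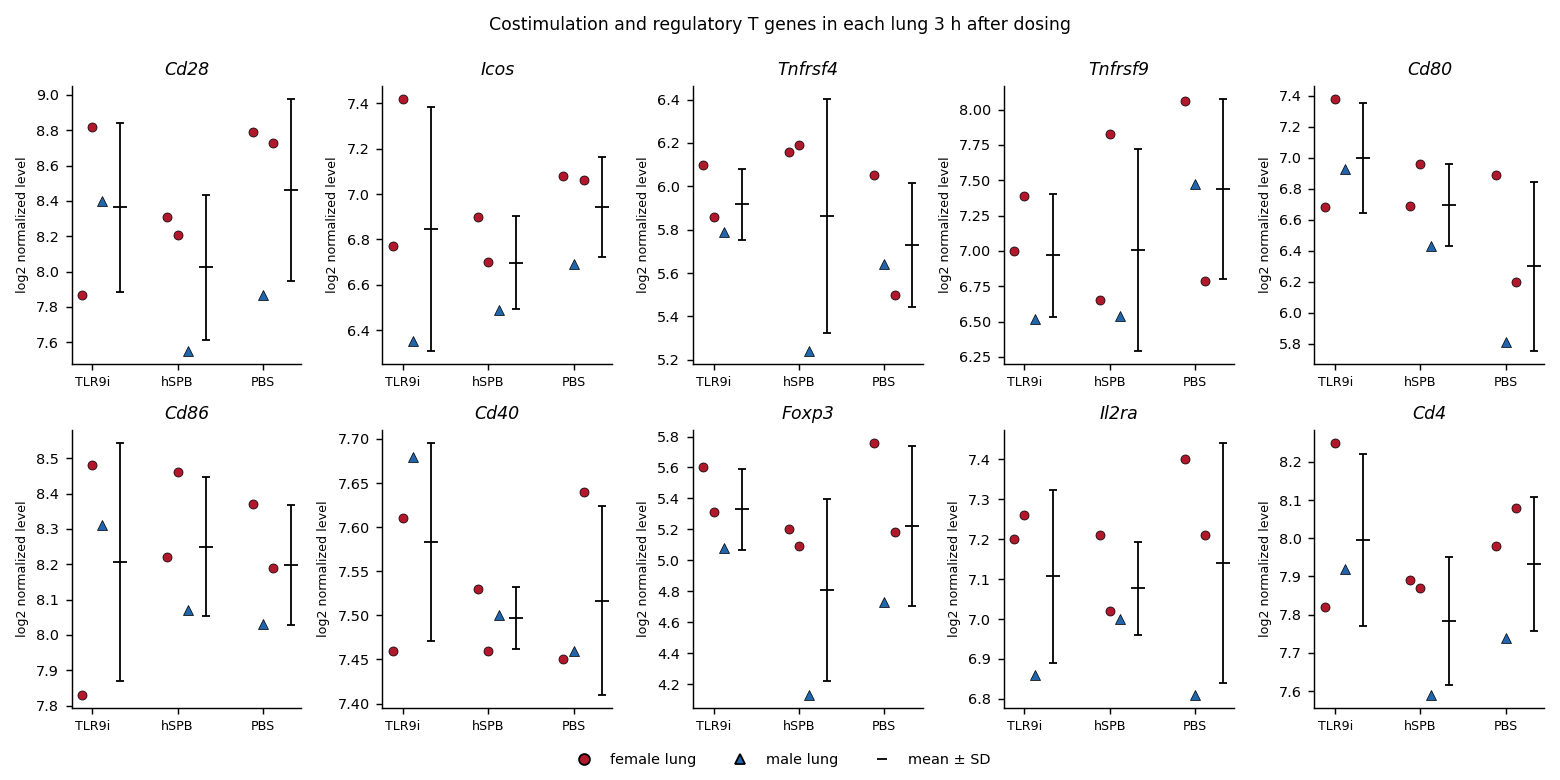
Log2 levels of the 10 genes in each of the 9 lungs taken 3 h after the dose (circles female, triangles male), with the mean ± SD of each group. The groups overlap for every gene, Cd80 included (6.68 to 7.38 after AAV-hSPBTLR9i and 5.81 to 6.89 after PBS).

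Ordered by mean level over the 6 day 97 groups, AAV-hSPB repeat stood first for 8 of the 10 genes and AAV-hSPBTLR9i repeat for Cd80 and Cd4. Neighbours in these orders overlapped in all but 2 cases. Cd28 averaged 7.69 ± 0.24 in AAV-hSPBTLR9i repeat lungs and 6.97 ± 0.23 in AAV-hSPB single lungs, its next group (SD, n = 4 each). Cd40 averaged 7.48 ± 0.12 in AAV-hSPBTLR9i repeat lungs and 7.19 ± 0.07 in AAV-hSPBTLR9i single lungs. On doxycycline was last for 6 genes and off doxycycline for Cd28, Icos, Cd40 and Cd4.

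The panel genes with the most similar pattern over the 24 lungs, by Pearson r, differed between the 10. For Cd28 it was Cd6, a T cell adhesion receptor (0.94), which also came first for Cd4 (0.88). For Icos it was Tnfrsf18 (0.90) and for Tnfrsf4 it was Ctla4 (0.85). Tnfrsf9 (0.94) and Il2ra (0.84) were each most like Sting1, the adaptor of cytosolic DNA sensing, and Cd80 was most like Ccl4, a chemokine of activated macrophages and T cells (0.82). Cd86 came closest to Zbp1, a sensor of nucleic acids (0.86), Cd40 to Ddx58, the RNA sensor RIG-I (0.87), and Foxp3 to C3ar1, the complement C3a receptor (0.89). These values are descriptions over lungs that share groups, depth and scaling genes.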

How the data were processed

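The members and all gene lists were chosen with earlier results of these data known. The female to male comparison off doxycycline, alone and against the other groups, was chosen after its values were seen. The authors deposited each table as a block of log2 values and a block of linear values of the same numbers, of which the log2 block was tested, and the labels name no software. From the values, the day 97 table is scaled to 6 of the 12 reference genes, and the scaling of the 3 h table was not checked. The deposited series matrix holds signal values scaled to all 12, used as an alternative for day 97, and its 9 columns for the 3 h lungs were not used. Raw counts were recovered as whole multiples of a factor per lung, and 8 dim control probes set a background for each day 97 lung.

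The log2 values were fitted with limma (version 3.58.1, under R 4.3.3) over every group of a table, using lmFit, contrasts.fit and eBayes and neither a filter nor a covariate. Residual degrees of freedom were 18 for day 97, 6 for 3 h, 17 with sex and 12 with sex in each group. P-values were adjusted over 773 genes by Benjamini-Hochberg with a threshold of 0.05 in each of 18 comparisons. The fit was tested on simulated data. All 10 members are reported in every comparison, and up to 4 genes with the smallest p come from each further list. Genes of these lists outside that rule, such as Tnfsf4 and Tnfsf9, were chosen after their values were seen. The alternatives were the median gene or all 12 reference genes as the scale, the matrix signal, a fit without the lowest 25% of genes, a sex term, a trended prior, the compared groups alone, values raised to background, voom on recovered counts and omission of each lung. Added after seeing the data were a second identifier's series as a covariate and the joint omission of lungs that stand apart. Promoter windows are RefSeq's on GRCm38.p6. Figures came from matplotlib 3.10.9, and summaries from scipy 1.17.1, numpy 2.4.6 and pandas 2.3.3, all in Python 3.11.15.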

Additional observations from a re-analysis of the deposited data

Results flagged for a closer look

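Of 60 sets of 4 lungs checked for a lung far from the others of its group (Dixon's test of a gap), 5 stood out, where chance gives about 1 in 20. In the AAV-hSPBTLR9i single group replicate 2 had 8.31 for Tnfrsf9, with the other lungs at 5.88 to 5.94, and 7.28 for Il2ra, with the others at 5.57 to 5.78. Cd28 was 6.35 in off-doxycycline replicate 4, with the others at 6.52 to 6.54. Cd4 was 6.93 in off-doxycycline replicate 1, with the others at 6.41 to 6.48. Icos was 5.31 in on-doxycycline replicate 4, with the others at 6.13 to 6.21.

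The female to male difference of Cd80 off doxycycline exceeded the mean of the same difference in the other 5 groups by 1.57 log2 units (limma adjusted p = 0.0483, 0.0197 to 0.310 over the alternatives). The off-doxycycline group was picked for this comparison after its values were seen, which the adjusted p does not account for.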

How the results depend on the processing

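Of 361 counts of members called under alternatives 310 lay within 1.5 times the reported count and 51 moved, and of 497 single differences under alternatives 393 kept their call, 104 lost it and 0 changed sign. The cause was not tested. With AAV-hSPB repeat against on doxycycline the count, reported as 7, was 3 with the lowest 25% of genes left out, which removes members from the fit, and 4 to 8 with 1 lung omitted. With AAV-hSPBTLR9i repeat against on doxycycline, reported as 5, it was 2 on the median gene scale, 3 on all 12 reference genes, 3 on the series matrix values, 3 without the lowest 25% of genes and 2 to 5 with 1 lung omitted. For AAV-hSPB repeat against single, reported as 3, it was 1 without the lowest 25% of genes, 0 with the compared groups alone and 1 to 3 with 1 lung omitted. For AAV-hSPBTLR9i repeat against single, reported as 0, it was 1 with sex as a covariate and 1 with voom. Both repeat groups against off doxycycline, reported as 6, gave 5 to 7 with 1 lung omitted, and both single-dose groups 0 to 1. Between females and males within groups it was 0 to 1 with 1 lung omitted. Within the off-doxycycline group, reported as 4, it was 2 without the lowest 25% of genes and 0 to 3 with 1 lung omitted, and against the other groups, reported as 1, it was 0 without the lowest 25% of genes, 0 with voom, 0 with the second identifier's series as a covariate, 2 with on-doxycycline replicate 1 and AAV-hSPB repeat replicate 2 omitted, and 0 to 3 with 1 lung omitted. Scaling to all 12 reference genes and the series matrix values were not run at 3 h. No paired analysis was possible because the labels give no replicate numbers that groups share. Foxp3 and Tnfrsf4, with some lungs at background, are the members whose levels depth limits most.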
